A study of Homo sapiens with 6 samples.

Results

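The p53 pathway was followed through 31 genes: inhibitors of p53 and the genes p53 is best known to switch on. All 31 were found by symbol among the 58302 gene entries of the deposited count table, 1 entry each, and all 31 passed the filter on low counts that left 15063 genes for testing. The 6 sequenced libraries came from Ker-CT, a line of human skin keratinocytes immortalised with telomerase and CDK4. Of these, 3 libraries carried siRNA against KMT2C, a histone H3 lysine 4 methyltransferase (siKMT2C), and 3 carried a negative-control siRNA (siNC). All 6 cultures, controls included, had been under the M5 mixture for 24 h (oncostatin M, IL-22, TNF-α, IL-17A and IL-1α, each at 10 ng/ml), which serves as a cell model of psoriasis, so the values describe stimulated cells and not the resting line. Per the series title, the question is what loss of KMT2C does to expression in psoriasis-like keratinocytes.

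p53 is a transcription factor that is kept scarce by the ubiquitin ligase MDM2 and its partner MDM4, and that accumulates when DNA is damaged, oncogenes are active or nucleoli are stressed. It binds DNA as a tetramer on paired short elements and raises genes that stop the cell cycle, start cell death, repair DNA, adjust metabolism and, through MDM2 and the phosphatase PPM1D, shut p53 off again. In epidermis the related protein p63, product of TP63, maintains the basal layer and binds many of the same DNA elements.

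The DNA elements that p53 recognises tie such genes together, so those near the gene starts were read from RefSeq promoter windows (GRCh38.p14), which run from 250 bases before to 50 bases after each annotated start. The motif was the p53 consensus: a pair of 10-base units RRRCWWGYYY (R is A or G, W is A or T, Y is C or T), 0 to 13 bases apart. The C and G of each unit had to be present, and at most 2 mismatches in all were allowed, also between that C and G. This consensus is its own reverse complement, so 1 search covers both strands. Windows were found for 25 of the 31 genes (none for TP53INP1, PHLDA3, GADD45A, RRM2B, TNFRSF10A and TNFRSF10B). The motif occurred in 5 of the 25, against 989 of 27305 genes with a window (3.62%). The members were listed largely because they are known p53 targets, so a higher share follows from that choice and is no result. They had 36 windows for 25 genes, against 35116 for 27305, and a higher median GC content per window (64.5% against 58.7%). The 5 stretches follow on the strand of the gene, with the 10-base units in capitals and the bases between them in lower case.

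DDB2: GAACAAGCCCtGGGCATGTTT
MDM2: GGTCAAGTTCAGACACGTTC
FAS: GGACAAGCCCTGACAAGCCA
AEN: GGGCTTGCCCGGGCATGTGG
FDXR: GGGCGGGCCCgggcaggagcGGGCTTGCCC

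The DDB2 stretch (chr11:47214979-47214999, plus strand) matched both units without a mismatch and lies 5 bases past an annotated start, exonic in 2 and intronic in 2 of 16 GENCODE 29 transcripts. The MDM2 stretch (chr12:68808923-68808942, plus strand) had 1 mismatch in each unit. It begins 101 bases before the start of the shorter MDM2 transcripts, and it is intronic in the 7 of 34 transcripts that span it; this internal promoter is the one p53 is known to use. The stretches of FAS (chr10:88991309-88991328, plus strand), AEN (chr15:88621306-88621325, plus strand) and FDXR (chr17:74872996-74873025, minus strand) had 2 mismatches each. A match is a description of letters, and many p53 elements lie outside such windows, that of CDKN1A among them.

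KMT2C itself was at 32.0, 30.8 and 27.3 CPM (counts scaled to library size with TMM factors) in siKMT2C replicates 1 to 3 and at 87.9, 82.0 and 72.6 CPM in siNC replicates 1 to 3, which fits the labels (log2 fold change -1.43, SE 0.14, edgeR adjusted p = 0.00786). The call for KMT2C was lost without siKMT2C replicate 1 or 2 or siNC replicate 2, at edgeR adjusted p of 0.0634, 0.0507 and 0.0593. Libraries held 14409277 to 17539519 counts. Every one of 12 keratinocyte markers was detected; of the markers of other cells 3 of 6 for melanocytes (TYR, DCT and SOX10), 2 of 5 for endothelium (PECAM1 and CDH5) and 4 of 8 for immune cells (PTPRC, CD3E and HLA-DRA among them) had no count in any library. The summed level of 9 fibroblast markers, most of it from VIM, was 1261 to 1500 CPM in siKMT2C and 813 to 1287 CPM in siNC. The 5 of these that were tested went both ways. VIM (log2 fold change 0.47, SE 0.18) and COL3A1 (0.78, SE 0.52) were positive. COL1A1 (-0.77, SE 0.19), COL1A2 (-0.33, SE 0.54) and DCN (-1.57, SE 0.32) were negative, and none was called. The sums were 6.67 to 8.35 against 6.99 to 15.1 CPM for melanocyte, 2.95 to 3.73 against 8.98 to 10.6 CPM for endothelial and 0.307 to 0.550 against 1.2 to 1.52 CPM for immune markers. Nearly all of the endothelial sum was KDR, a VEGF receptor gene, which fell (log2 fold change -1.59, SE 0.19, edgeR adjusted p = 0.0135). Most of the immune sum in siNC was CD14, at 17, 14 and 19 counts, against 3, 5 and 2 counts in siKMT2C. CD14 was not called (log2 fold change -2.23, SE 0.43, edgeR adjusted p = 0.0534). The part of these markers in the results was not tested. The library of siNC replicate 3 stood apart from the other controls, so larger differences that rest on it are also given without it. Nothing in the labels says that replicates came from separate cultures, so p-values measure the spread between these libraries, which may be technical. In bulk RNA, fewer cells of a type and less RNA per cell cannot be told apart.

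TP53INP1 fell when KMT2C was lowered, and it was the only 1 of 31 members to pass the test (3.23%), where 1.5% of all tested genes passed (226 of 15063; 0.69% higher and 0.81% lower in siKMT2C). The threshold was a Benjamini-Hochberg adjusted p of 0.05 over all genes in the quasi-likelihood test of edgeR. Of the members, 12 had positive and 19 negative log2 fold changes (siKMT2C over siNC), with a median of -0.05 against -0.0025 over all tested genes, of which 50.3% were negative. The groups did not overlap in 6 members (19.4%), against 24.1% of all tested genes, and 6 members had an unadjusted edgeR p under 0.05 (19.4%), against 16.9% of all tested genes. By the counts of p-values and of groups without overlap the members lay near the background. A member that was not called is not shown to be unaltered, since most 95% intervals reach well to both sides of 0. In alternatives that called more genes, members called numbered 2 in DESeq2 (6.09% of all genes), 2 with a term for the replicate number (6.43%), 1 with a correction for GC content and transcript length (4.24%), 3 with both (9.54%) and 2 without siNC replicate 3 (4.04%).

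**Figure D1:**
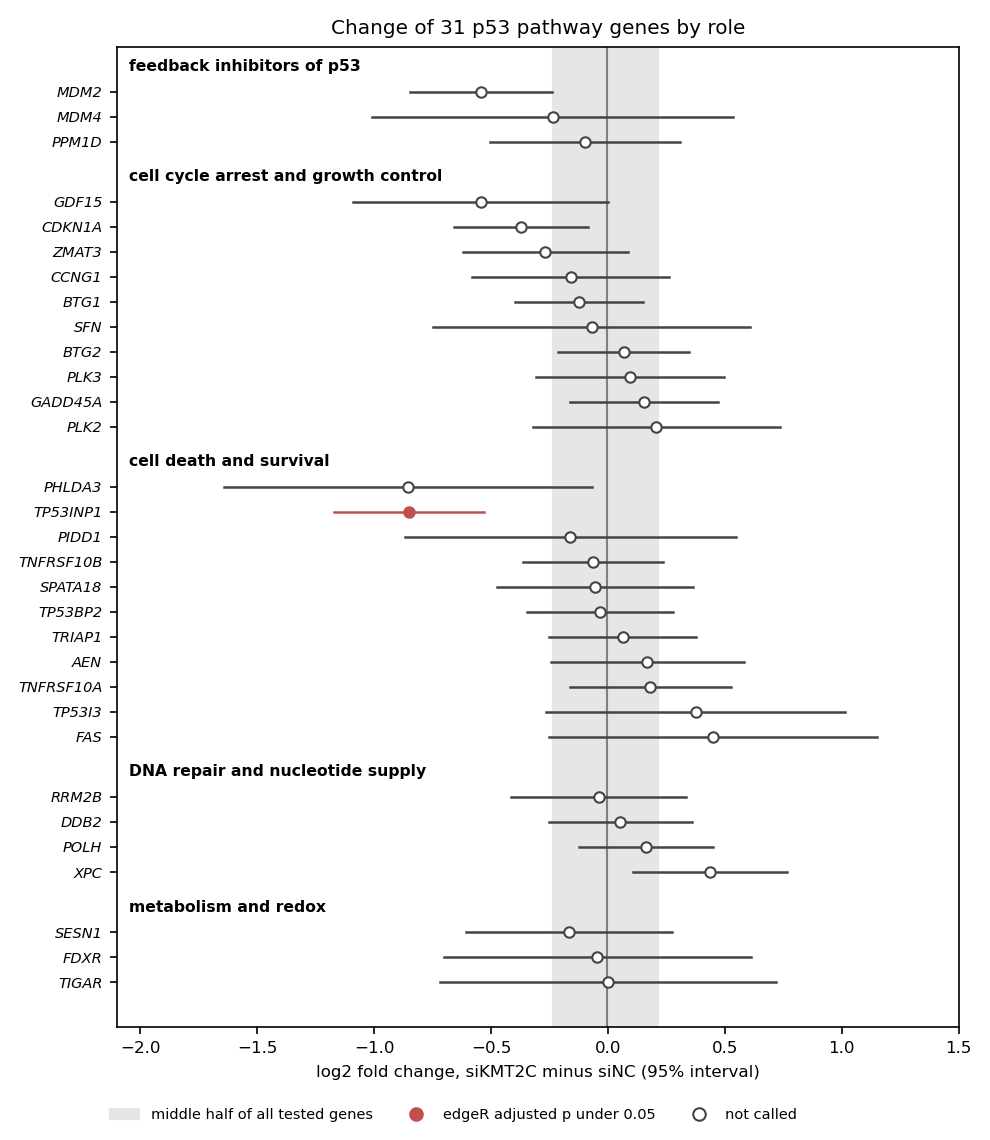
Log2 fold change of each of the 31 genes, siKMT2C minus siNC, with its 95% interval, grouped by role (n = 3 libraries per group). The grey band is the interquartile range of all tested genes and the vertical line is their median; TP53INP1, the filled point at -0.85, is the only called gene, and the intervals of MDM2, CDKN1A, PHLDA3 and GDF15 also lie below 0 while that of XPC lies above it.

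Among the inhibitors of p53, MDM2 (ENSG00000135679, chromosome 12, 68808176 to 68850686, GRCh38), the ligase that marks p53 for destruction and whose internal element is printed above, was lower in every siKMT2C library. Its level was 122, 135 and 115 CPM in siKMT2C replicates 1 to 3 and 202, 173 and 167 CPM in siNC replicates 1 to 3, so the groups did not overlap. The log2 fold change of MDM2 was -0.54 (SE 0.13, 95% interval -0.85 to -0.24), which missed the threshold (edgeR adjusted p = 0.092). The edgeR adjusted p of MDM2 was 0.0408 without siNC replicate 3, and it was 0.022 in DESeq2; over all alternatives it ran from 0.022 to 1.0, with a negative log2 fold change in each. MDM2 shares exon bases with CPM, a gene on the other strand whose counts amounted to 3.66% of those of MDM2. Such shares, here and below, set the whole count of the other gene against that of the member. They are not shares of common reads, and the length of the overlaps was not measured. Of the 31 members, 14 shared exon bases with another gene, and in 6 such a gene had over 10% of the member's counts.

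MDM4, the MDM2 partner that masks the p53 activation domain, was far higher in 1 control library than elsewhere. It was at 187, 144 and 145 CPM in siKMT2C replicates 1 to 3, at 122 and 135 CPM in siNC replicates 1 and 2, and at 303 CPM in siNC replicate 3. The log2 fold change was -0.24 (SE 0.33, 95% interval -1.01 to 0.54, edgeR adjusted p = 0.781), and without siNC replicate 3 it was 0.30. PPM1D, the phosphatase that reverses damage signalling to p53, ran from 11.9 to 15.2 CPM in siKMT2C and from 12.8 to 16.3 CPM in siNC, with the lowest value of each group in replicate 3. Its log2 fold change of -0.10 had a 95% interval of -0.51 to 0.31.

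The cell cycle arm was led by CDKN1A (ENSG00000124762, chromosome 6, 36676460 to 36687339, GRCh38), which encodes the cyclin-dependent kinase inhibitor p21. CDKN1A was at 558, 544 and 542 CPM in siKMT2C replicates 1 to 3 and at 656, 661 and 812 CPM in siNC replicates 1 to 3. All siKMT2C libraries lay below all controls and close to each other, while siNC replicate 3 lay above its group. The log2 fold change was -0.37 (SE 0.12, 95% interval -0.66 to -0.09, edgeR adjusted p = 0.184), and -0.27 without siNC replicate 3 (edgeR adjusted p = 0.157); no alternative brought CDKN1A under the threshold.

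GDF15, a secreted stress cytokine, was the least counted member, with 927 counts over the 6 libraries. It was at 6.48, 6.42 and 10.1 CPM in siKMT2C replicates 1 to 3 and at 9.55, 10.9 and 13.1 CPM in siNC replicates 1 to 3. The groups overlapped through siKMT2C replicate 3 (log2 fold change -0.55, SE 0.24, edgeR adjusted p = 0.295). ZMAT3, an RNA-binding zinc finger protein that restrains growth, was at 117, 130.2 and 98.9 CPM in siKMT2C and 154, 142 and 121 CPM in siNC, in replicate order. In both groups of ZMAT3 replicate 3 was lowest, and the groups overlapped (log2 fold change -0.27, SE 0.15, edgeR adjusted p = 0.43).

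The other 7 members of this arm had log2 fold changes from -0.16 to 0.21 and none was called. BTG1, an antiproliferative cofactor, did not overlap between groups, at 68.0 to 69.5 CPM in siKMT2C against 69.7 to 77.8 CPM in siNC, but the difference was small (-0.12, SE 0.12). Its relative BTG2 was among the steadiest genes, at 48.5 to 51.9 against 45.3 to 49.3 CPM. GADD45A, a growth arrest gene that also binds PCNA, had 104 to 116 against 91.1 to 114 CPM. CCNG1, the cyclin G1 gene, had 102 to 137 against 104 to 153 CPM. The polo-like kinase gene PLK2 was at 88.4 CPM in siKMT2C replicate 1 and at 46.4 to 56.5 CPM in the other 5 libraries, and without siKMT2C replicate 1 its log2 fold change went from 0.21 to -0.10. PLK3, of the same family, ran from 39.3 to 45.4 CPM in siKMT2C and from 31.4 to 47.2 CPM in siNC.

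SFN, the 14-3-3σ gene, is both a p53 target and a keratinocyte gene, and it was the most abundant member. In siKMT2C replicates 1 to 3 it was at 1013, 836 and 1379 CPM, and in siNC replicates 1 to 3 at 789, 948 and 1651 CPM. Replicate 3 was the highest of each group, and the groups overlapped throughout (log2 fold change -0.07, 95% interval -0.75 to 0.61). Without siNC replicate 3 the value was 0.30.

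**Figure D2:**
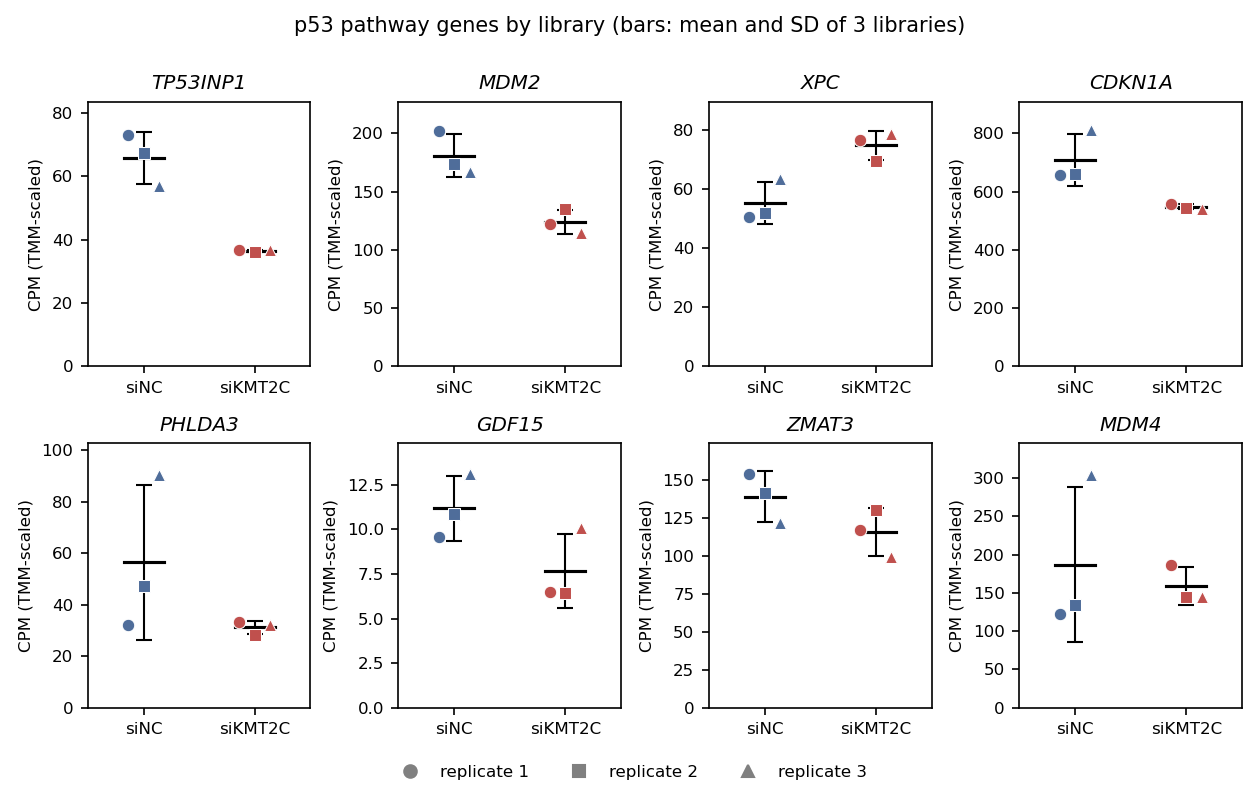
CPM of 8 genes in each library (symbols are replicates 1 to 3; horizontal lines are group means and bars SDs, n = 3 per group; axes start at 0). The groups are separate for TP53INP1, MDM2, XPC and CDKN1A and overlap for PHLDA3, GDF15, ZMAT3 and MDM4; siNC replicate 3 is the highest library for PHLDA3 (90.2 CPM) and MDM4 (303 CPM).

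In the cell death arm the called gene was TP53INP1 (ENSG00000164938, chromosome 8, 94925972 to 94949411, GRCh38), whose product promotes the killing form of p53 activity and takes part in autophagy. TP53INP1 was at 36.7, 36.0 and 36.8 CPM in siKMT2C replicates 1 to 3 and at 73.1, 67.6 and 56.9 CPM in siNC replicates 1 to 3. The 3 siKMT2C libraries were nearly equal, and every control was higher. TP53INP1 fell by 0.85 on the log2 scale (SE 0.14, 95% interval -1.17 to -0.53, edgeR adjusted p = 0.0335), to 55.5% of control. An exact two-sided permutation test over the 6 libraries gave p = 0.1, the smallest that 3 against 3 allow.

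The TP53INP1 call was lost without any 1 library other than siNC replicate 3, and in a test against a 1.5-fold minimum. Its edgeR adjusted p was 0.182, 0.147 and 0.102 without siKMT2C replicate 1, 2 or 3, 0.0925 and 0.158 without siNC replicate 1 or 2, and 0.0103 without siNC replicate 3. The log2 fold change stayed between -0.95 and -0.77 over all alternatives.

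PHLDA3, which blocks AKT at the membrane, had a log2 fold change of similar size but rested on 1 library. It was at 33.1, 28.4 and 32.0 CPM in siKMT2C replicates 1 to 3 and at 32.0, 47.1 and 90.2 CPM in siNC replicates 1 to 3. The log2 fold change was -0.86 (SE 0.34, 95% interval -1.64 to -0.07, edgeR adjusted p = 0.254), and -0.35 without siNC replicate 3. The other 9 genes of this arm ran from -0.16 to 0.45. AC096677.2 overlaps PHLDA3 on the same strand, with counts equal to 7.29% of those of PHLDA3 (log2 fold change -1.32, edgeR adjusted p = 0.619).

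The death receptors did not share a direction. FAS, the receptor for FAS ligand, varied most: it was at 42.4, 22.2 and 34.0 CPM in siKMT2C replicates 1 to 3 and at 23.7, 32.3 and 16.2 CPM in siNC replicates 1 to 3 (log2 fold change 0.45, SE 0.30, edgeR adjusted p = 0.51). Its value was 0.22 without siNC replicate 3, and 0.22 to 0.72 over the fits without 1 library. FAS shares exon bases with ACTA2 on the other strand, whose counts amounted to 120.4% of those of FAS and whose log2 fold change was 0.49. Without strand information, reads from the shared bases cannot be told apart. The TRAIL receptor gene TNFRSF10A had 44.5 to 53.5 CPM in siKMT2C and 38.7 to 48.8 CPM in siNC. On the other strand AC100861.1 and TNFRSF10A-AS1 overlap it, with counts equal to 9.02% and 6.83% of those of TNFRSF10A. The neighbouring gene TNFRSF10B had 273 to 318 against 273 to 342 CPM. RHOBTB2 overlaps TNFRSF10B on the other strand, with counts equal to 17.9% of those of TNFRSF10B.

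The remaining death and survival genes were not called. TP53I3, a quinone oxidoreductase gene, was at 29.6, 29.6 and 43.9 CPM in siKMT2C and 21.1, 20.6 and 37.7 CPM in siNC, in replicate order, with replicate 3 high in both groups (0.38, SE 0.28; 0.71 without siNC replicate 3, edgeR adjusted p = 0.105). FAM228B overlaps TP53I3 on the other strand, with counts equal to 20.5% of those of TP53I3 and a log2 fold change of -0.26. The nuclease gene AEN showed the same order, up to 64.9 and 59.3 CPM in replicate 3 of siKMT2C and siNC (0.17, SE 0.18; 0.31 without siNC replicate 3). PIDD1, which builds the caspase-2 platform, was at 9.19 to 13.5 against 7.90 to 17.7 CPM; it overlaps the far more abundant RPLP2, so its level is uncertain. TRIAP1, a survival factor at the mitochondrial inner face, the mitophagy gene SPATA18 and the p53 cofactor gene TP53BP2 had log2 fold changes of 0.06, -0.06 and -0.03, with 95% intervals of -0.25 to 0.38, -0.48 to 0.36 and -0.35 to 0.28.

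Among the DNA repair genes XPC (ENSG00000154767, chromosome 3, 14145147 to 14178783, GRCh38), the damage sensor that opens nucleotide excision repair, was the only member above 0 with an unadjusted edgeR p under 0.05. XPC was at 76.8, 69.5 and 78.9 CPM in siKMT2C replicates 1 to 3 and at 50.5, 52.1 and 63.7 CPM in siNC replicates 1 to 3. All siKMT2C libraries lay above all controls (log2 fold change 0.44, SE 0.14, 95% interval 0.11 to 0.77), but the test was not passed (edgeR adjusted p = 0.175; 0.0538 without siNC replicate 3). LSM3 overlaps XPC on the other strand with counts equal to 70.7% of those of XPC, and had a log2 fold change of 0.15.

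DDB2, the partner sensor in excision repair and the gene with the complete element printed above, hardly differed: 27.4, 32.1 and 31.1 CPM in siKMT2C replicates 1 to 3 and 29.5, 29.6 and 28.2 CPM in siNC replicates 1 to 3 (0.05, 95% interval -0.25 to 0.36). The lesion-bypass polymerase gene POLH had 47.9 to 54.4 against 44.5 to 47.7 CPM, without overlap (0.16, SE 0.12). GTPBP2 overlaps POLH on the other strand, with counts equal to 151.7% of those of POLH. RRM2B, the p53-induced subunit of ribonucleotide reductase, had 70.7 to 86.1 against 68.5 to 96.3 CPM (-0.04, SE 0.16).

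The metabolic targets gave wide intervals. TIGAR, which lowers glycolysis, was at 54.6, 81.5 and 49.1 CPM in siKMT2C and 82.7, 36.3 and 66.1 CPM in siNC, in replicate order, so that the mean of each group was 61.7 CPM while single libraries differed by more than the groups (95% interval of the log2 fold change -0.72 to 0.72). SESN1, a sestrin that restrains mTORC1, had 40.5 to 53.6 against 41.7 to 63.2 CPM (-0.17, SE 0.19). FDXR, the mitochondrial ferredoxin reductase, had 13.6 to 19.8 against 12.1 to 24.0 CPM (-0.05, SE 0.28). A change of 1.5-fold in TIGAR or FDXR, in either direction, lies within those limits.

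Set side by side, the 5 genes whose elements are printed above had log2 fold changes of 0.05 (DDB2), -0.54 (MDM2), 0.45 (FAS), 0.17 (AEN) and -0.05 (FDXR), and none was called in edgeR with all libraries; MDM2 was called in DESeq2 and without siNC replicate 3, as given above.

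Levels of different genes can be compared only per length. The deposited FPKM (fragments per kilobase, scaled to depth) divide by a length per gene that is not given. It is not that of the longest GENCODE 29 transcript for every member. The order below is therefore that of the deposited values, and it partly depends on those lengths. SFN stood highest at 603 to 1270 FPKM over the 6 libraries. CDKN1A followed at 85.2 to 132 FPKM, TNFRSF10B at 33.0 to 42.8 FPKM, GADD45A at 23.1 to 29.1 FPKM and TRIAP1 at 20 to 24.2 FPKM. The ranges of SFN, CDKN1A and TNFRSF10B did not touch each other, whereas those of GADD45A and TRIAP1 did. At the low end were PIDD1 at 0.561 to 1.26 FPKM, FDXR at 1.08 to 2.15 FPKM and PPM1D at 1.62 to 2.24 FPKM. MDM2 (5.63 to 10.1 FPKM) lay near the middle of the list and MDM4 (3.07 to 7.63 FPKM) below it, with overlapping ranges. In siKMT2C replicate 1, MDM4 had the higher CPM (187 against 122) and the shorter longest transcript (10073 against 12633 bases). Its FPKM was still the lower one (4.63 against 6.02), so the order of MDM2 and MDM4 rests on the lengths used for the FPKM.

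**Figure D3:**
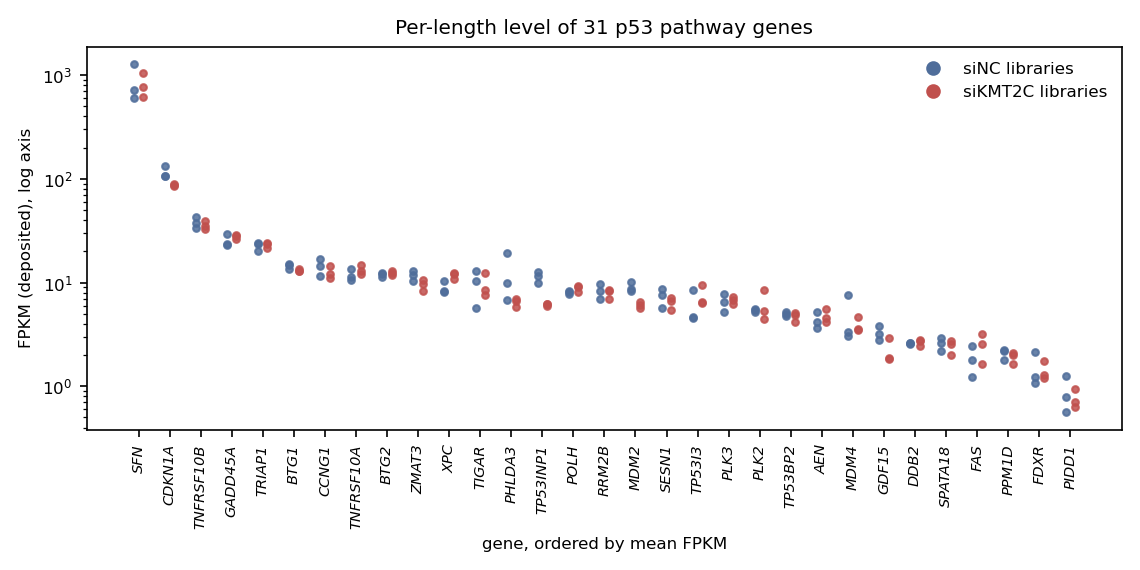
Deposited FPKM of the 31 genes on a log axis, ordered by their mean; each point is 1 library (3 siNC, 3 siKMT2C). SFN is at 603 FPKM or more in every library and PIDD1 reaches at most 1.26 FPKM, while the siNC and siKMT2C points of most genes overlap.

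The libraries differed within groups along an axis that many of these genes followed. Replicate 3 lay above the mean of replicates 1 and 2 in both groups in 13 members, and below it in both groups in 10, so that 74.2% had the same sign in both groups; among all tested genes this share was 73.0%. FDXR (0.47 in siKMT2C and 0.89 in siNC, log2 units), PIDD1 (0.48 and 0.91), SFN (0.58 and 0.93) and TP53I3 (0.57 and 0.85) were among those above. SESN1 (-0.35 and -0.52), SPATA18 (-0.40 and -0.36) and CCNG1 (-0.28 and -0.46) were among those below.

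The GC content of the longest transcript moved with this axis. It was 61.8% for FDXR, 66.0% for PIDD1, 62.8% for SFN and 58.4% for TP53I3, but 43.4% for SESN1, 44.2% for SPATA18 and 38.2% for CCNG1. Over the 31 members, which share these libraries, Spearman's rho between GC content and the shift of replicate 3 was 0.67 in siKMT2C and 0.79 in siNC; over 15022 tested genes it was 0.48 and 0.68. These are correlations across genes, which are not replicates. Mitochondrial transcripts took 5.02% and 4.83% of counts in replicate 3 of siKMT2C and siNC and 5.78% to 6.65% in the other 4 libraries. The part of either in the comparison was not tested, apart from the fit corrected for GC content and length, in which TP53INP1 fell by 0.87 (edgeR adjusted p = 0.00845) and no other member was called.

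**Figure D4:**
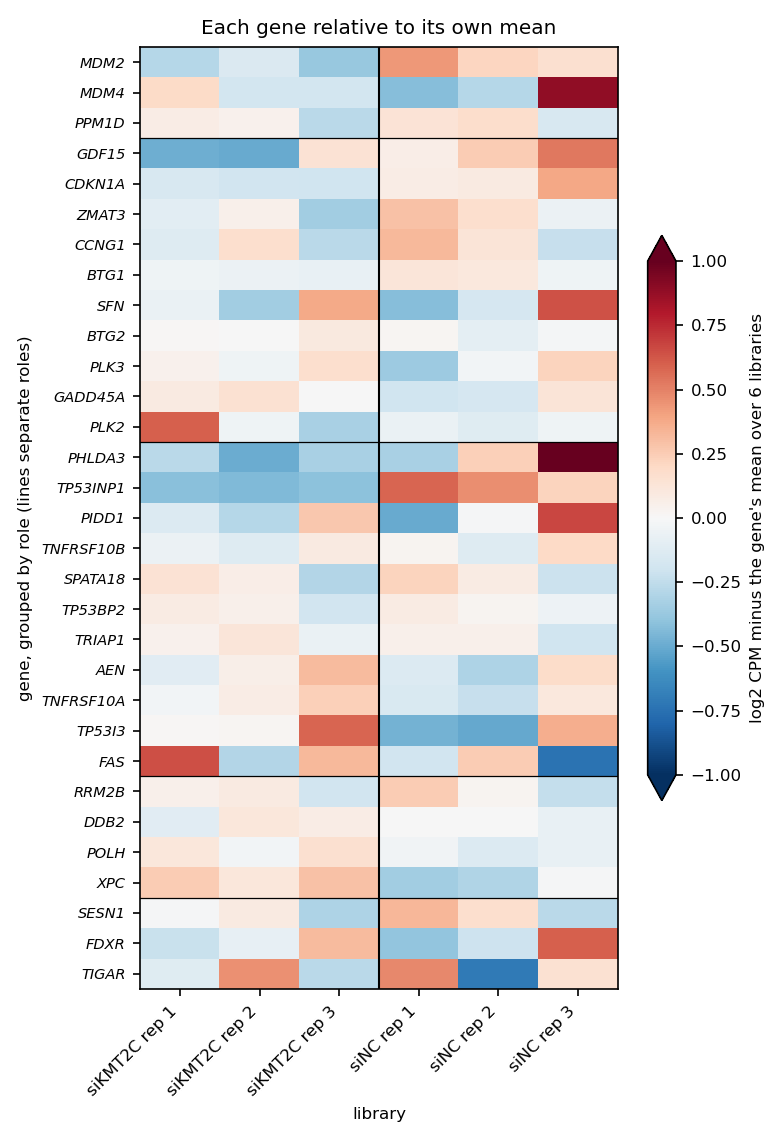
Log2 CPM of each gene minus its own mean over the 6 libraries, by library (rows grouped by role; colours saturate at 1 log2 unit). TP53INP1, MDM2 and CDKN1A are below their mean in all 3 siKMT2C libraries, and siNC replicate 3 is the highest library for MDM4, PHLDA3, SFN, PIDD1 and FDXR.

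No gene upstream of p53 was called in edgeR: 0 of 22 tested among 23 family members and regulators, where 1.5% of all tested genes passed. Unadjusted edgeR p was under 0.05 in 3 of the 22 (13.6%, against 16.9% of all tested genes), and DESeq2 called 1, TP63. TP63, which encodes p63, was lower in every siKMT2C library, at 141, 126 and 80.7 CPM in replicates 1 to 3 against 174, 188 and 197 CPM in siNC. Its log2 fold change was -0.69 (SE 0.20, 95% interval -1.16 to -0.22, edgeR adjusted p = 0.144; DESeq2 adjusted p = 0.048, and 0.048 to 1.0 over all alternatives). TP73 had 2, 4 and 5 counts in siKMT2C and 16, 6 and 18 counts in siNC, in replicate order, too few to be tested. The kinase gene CHEK2 (0.45, SE 0.14), the acetyltransferase gene EP300 (-0.31, SE 0.13) and the kinase gene DYRK2 (-0.31, SE 0.15) had the next smallest p-values, with edgeR adjusted p from 0.171 to 0.355.

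CDKN2A, which encodes the MDM2 inhibitor p14ARF and the CDK4 inhibitor p16, is named here after its values were seen, because 1 library decides it. It was at 276, 243 and 162 CPM in siKMT2C replicates 1 to 3, at 90.4 and 102 CPM in siNC replicates 1 and 2, and at 476 CPM in siNC replicate 3. The log2 fold change was 0.03 (SE 0.60) with all libraries, -0.0038 when scaled by library size alone, and 1.23 without siNC replicate 3 (edgeR adjusted p = 0.0397). Reads of its overlapping transcripts, which encode different proteins, are counted together.

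Of 47 further p53 targets, listed from general knowledge and all tested, 2 were called (4.26%, against 1.5% of all tested genes), among them ABCA12, which fell. Unadjusted edgeR p was under 0.05 in 12 of the 47 (25.5%, against 16.9% of all tested genes). ABCA12, the lipid transporter of lamellar granules, was at 10.5, 11.4 and 8.66 CPM in siKMT2C replicates 1 to 3 and at 30.0, 32.9 and 24.0 CPM in siNC replicates 1 to 3 (log2 fold change -1.51, SE 0.19, edgeR adjusted p = 0.0135). The groups were far apart, yet the call for ABCA12 was lost without any 1 library other than siNC replicate 3, with edgeR adjusted p of 0.0511 to 0.0954.

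These targets went both ways: 28 of the 47 were negative and 19 positive, with a median of -0.12, and the groups did not overlap in 17 (36.2%, against 24.1% of all tested genes). The desmosome-associated gene PERP (0.62, SE 0.13), the lysosomal fucosidase gene FUCA1 (-0.55, SE 0.15), the growth factor gene PGF (-0.83, SE 0.26; -0.50 without siNC replicate 3) and CYFIP2 (-0.48, SE 0.16) had the smallest p-values among those not called, with edgeR adjusted p from 0.0676 to 0.18.

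Cell cycle genes that p53 lowers by way of p21 and the DREAM repressor complex were also followed. None of 14 was called in edgeR (DESeq2 called 1, FOXM1), and 2 had an unadjusted p under 0.05 (14.3%, against 16.9% of all tested genes). Of the 14, 12 were positive and 2 negative (14.3% negative, against 50.3% of all tested genes), and the median was 0.23. FOXM1, a mitotic transcription factor, was at 22.2, 35.4 and 44.5 CPM in siKMT2C replicates 1 to 3 and at 18.9, 18 and 20.4 CPM in siNC replicates 1 to 3 (0.83, SE 0.24, edgeR adjusted p = 0.142). MYBL2 (0.51, SE 0.19), CDK1 (0.45, SE 0.20; 0.27 without siNC replicate 3) and BIRC5 (0.41, SE 0.20) followed, with edgeR adjusted p from 0.231 to 0.351.

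**Figure D5:**
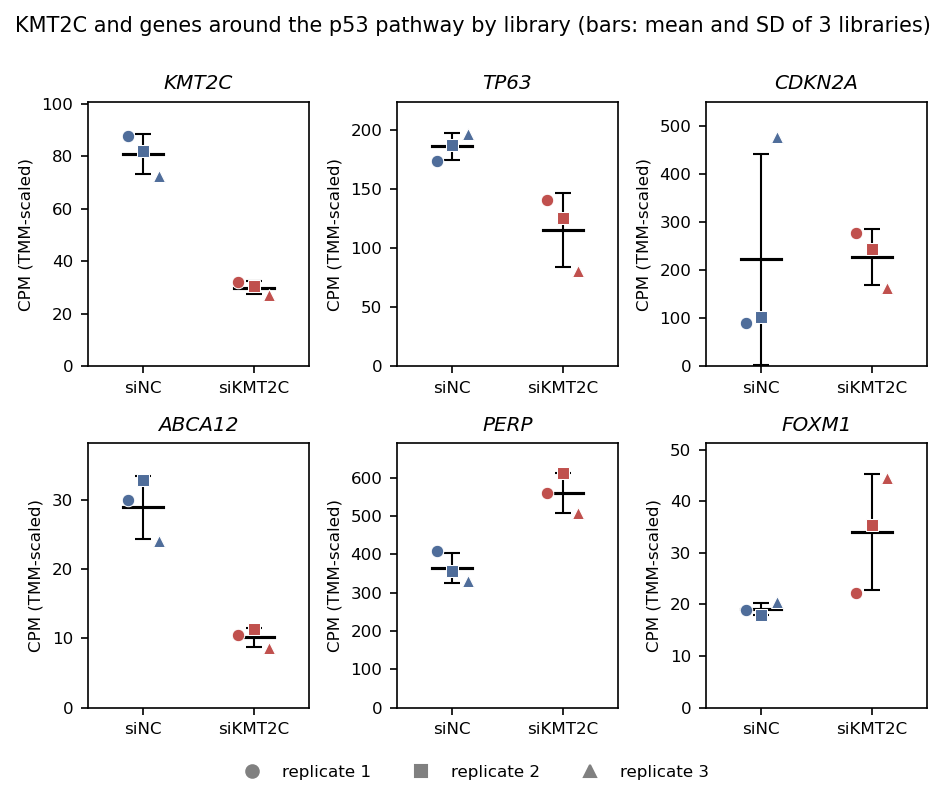
CPM by library of KMT2C and of 5 genes around the p53 pathway (symbols are replicates 1 to 3; lines are group means and bars SDs, n = 3 per group; axes start at 0). KMT2C, TP63, ABCA12, PERP and FOXM1 do not overlap between groups, CDKN2A does, and siNC replicate 3 is far above the other controls for CDKN2A (476 against 90.4 and 102 CPM).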

How the data were processed

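The authors deposited 1 table with raw read counts per gene and FPKM values for 6 libraries, per the file headers. CASAVA 1.8 and TopHat2 2.0.6 appear in the submitters' processing notes, which also name the mouse build mm10, although the identifiers are human; the counting program, annotation, human build and strandedness are not given in the sources used here. FPKM as deposited were the counts rescaled (largest relative deviation in implied length over the members 4.2e-06). That check compares libraries, and the implied lengths were not those of the longest transcript for every member. Positions and symbols come from GENCODE 29 (GRCh38).

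Counts were tested with edgeR 4.0.16 in R 4.3.3 (filterByExpr, TMM, robust quasi-likelihood F test, siKMT2C against siNC without further terms), after the step was tested on simulated data. P-values were adjusted by Benjamini-Hochberg over all 15063 genes. The SE is the absolute log2 fold change over the square root of F; intervals are 95%. DESeq2 1.42.0 and limma-voom (limma 3.58.1) were alternatives. Figures used matplotlib 3.10.9.

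The members and lists were chosen with earlier results of these data known. All members are named; of other lists, called genes, TP63, TP73 and at most 4 more with the smallest p. Some genes that this rule names are not reported here.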

Additional observations from a re-analysis of the deposited data

How the results depend on the processing

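The alternatives were other scalings, filters, tools, a replicate block, a correction for GC content and length (loess, span 0.3), glmTreat with a minimum of 1.5-fold, and fits without 1 library at a time. Against 1 called member with all libraries in edgeR, DESeq2 called 2 (MDM2 and TP53INP1), the block 2, the block with the GC and length correction 3 (XPC as well), glmTreat 0, and fits without 1 library 0 to 2. For the 47 further targets these counts were 4, 5, 6, 0 and 0 to 3, against 2. DESeq2 called 1 regulator, and without 1 library 0 to 1 were called; of the cell cycle genes, DESeq2, the block and the block with correction called 1 each. All genes called numbered 864 with DESeq2, 968 with the block, 638 with the correction, 1437 with both and 18 with glmTreat, and 16 to 620 without 1 library. The members' median log2 fold change lay between -0.07 and 0.03 without 1 library. The cause of these shifts was not tested.

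Whether the shared replicate numbers pair the samples is not known. Deviations from the group means correlated at 0.02, 0.11 and 0.39 for numbers 1, 2 and 3. For siKMT2C replicate 1, the value with siNC replicate 2 (0.03) was hardly different from that with its own number. For siKMT2C replicate 2, the value with siNC replicate 1 (0.32) was higher than that with its own number (0.11). Deviations from means of 3 libraries depend on each other, so these correlations cannot decide the question. Under the block, MDM2 was called (edgeR adjusted p = 0.033).

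Log2 fold changes of some members, and of CDKN2A, changed sign between fits. Most of these were near 0 with all libraries, but not MDM4 (-0.24) or PLK2 (0.21). With the GC and length correction, without and with the block, BTG2 was -0.0147 and -0.0052 and TRIAP1 -0.11 and -0.10. TIGAR was 0.00053 with median-ratio factors, 0.0047 with no filter, 0.0011 in DESeq2, 0.0387 in limma-voom and 0.0292 with the block, and CDKN2A was -0.0038 with library size alone. Without 1 library the ranges were -0.47 to 0.30 (MDM4), -0.21 to 0.0050 (PPM1D), -0.29 to 0.30 (SFN), -0.10 to 0.39 (PLK2), -0.0454 to 0.24 (PLK3), -0.14 to 0.0139 (TNFRSF10B), -0.40 to 0.20 (PIDD1), -0.0860 to 0.0478 (TP53BP2), -0.0250 to 0.11 (TRIAP1), -0.18 to 0.0662 (SPATA18), -0.17 to 0.0867 (RRM2B), -0.27 to 0.27 (TIGAR), -0.23 to 0.31 (FDXR) and -0.35 to 1.23 (CDKN2A).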
